A study of Mus musculus with 18 samples.

Results

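The 10 genes of blood vessel endothelium, Pecam1, Cdh5, Kdr, Flt1, Tek, Tie1, Emcn, Eng, Vwf and Esam, were followed through 18 mouse breast tumours. They were chosen by name, as 10 of the 54532 rows of the read count table. The 18 tumours, all on the doxycycline diet DOX625, comprised 8 labelled p95HER2 and 10 labelled EV. They grew in mice from PB2, a mouse breast cancer cell line. p95HER2 is HER2, a receptor tyrosine kinase, without most of its extracellular part. The labels do not spell out EV and give no sex, age or host strain. The comparison addresses how p95HER2 overexpression changes gene expression in these tumours. Both the cancer cells and their host are mouse, so reads of cancer cells and of host vessels are counted under the same genes and cannot be told apart.

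Tumours are fed by vessels that endothelial cells line. These cells hold to each other through VE-cadherin and PECAM1, respond to VEGF through KDR (VEGFR2) and FLT1 (VEGFR1), and are kept quiescent by angiopoietin signals through TEK (TIE2). FLT1 binds VEGF tightly but signals weakly, and it is also made in a soluble form that captures VEGF; the counts per gene do not separate the forms.

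All 10 genes were read in every tumour and all 10 passed the filter on low counts. The lowest raw count was 60 reads, for Tek, and the highest 6067, for Flt1. None of the 10 was called between p95HER2 and EV tumours, where 10.2% of the 17123 genes tested were called (edgeR quasi-likelihood test, Benjamini-Hochberg (BH)-adjusted p under 0.05). The groups' ranges of CPM, the counts scaled to library total, overlapped for all 10, while 0.788% of all genes tested had ranges that did not overlap. Before adjustment 2 of the 10 had p under 0.05, Eng and Flt1, against 26.3% of all genes. Over all genes 5.73% were called higher and 4.45% lower in p95HER2 tumours. In the 18 fits with 1 tumour left out, 0 to 2 of the 10 were called beside 7.47% to 13.7% of all genes. Of the log2 fold changes, 7 were negative and 3 positive, with a median of -0.15; over all genes tested 52.3% were negative and the median was -0.0074. Across the 18 tumours 34 of the 36 pairs among 9 of the genes were positively correlated, while Flt1, the highest in CPM, did not follow these 9 genes.

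**Figure D1:**
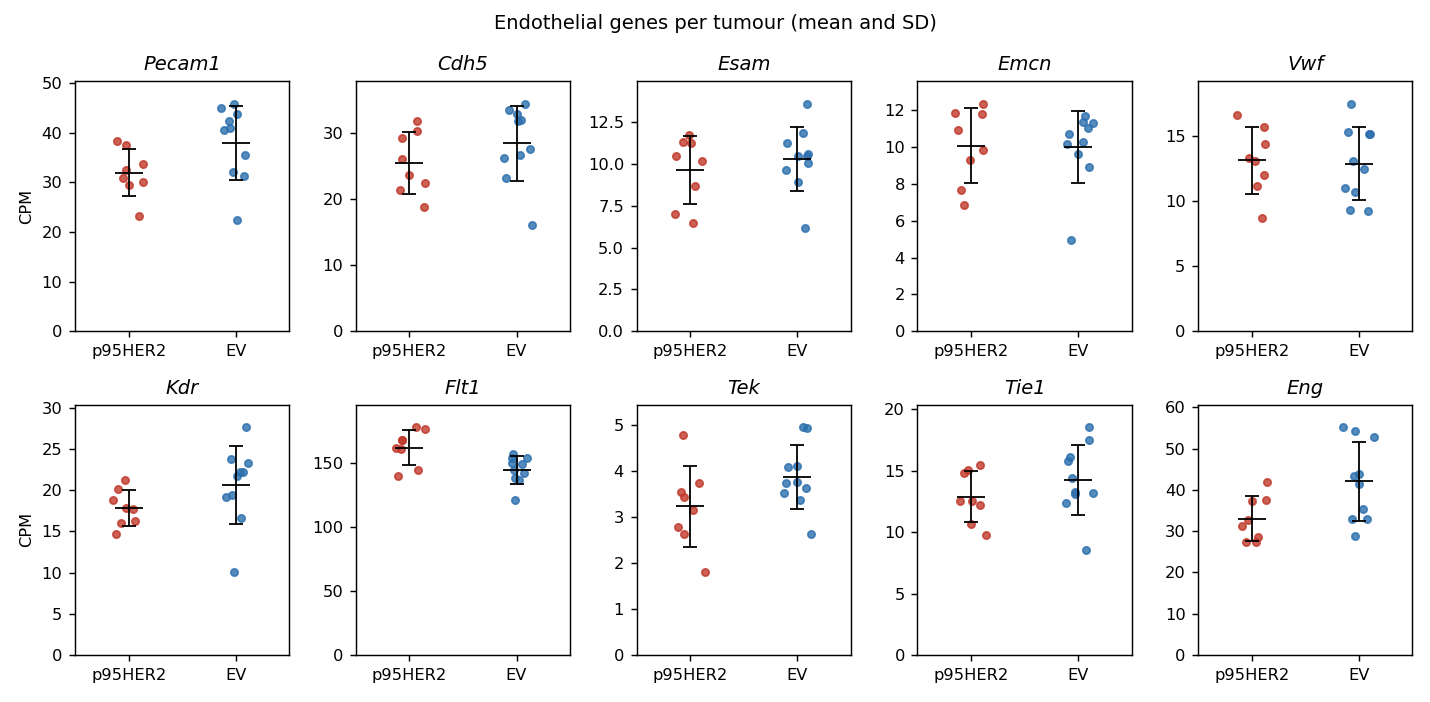
CPM (reads of a gene as a share of the scaled library total, y axes from 0) of the 10 endothelial genes, with 1 point per tumour, 8 p95HER2 tumours left and 10 EV tumours right in each panel, and the mean with its SD in black. The groups overlap in every panel; Flt1 lies between 121 and 178 CPM, and every other gene stays under 56 CPM.

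Library totals were 32686558 to 34804640 counts in p95HER2 tumours and 35030920 to 38464541 in EV tumours, without overlap. The numbers in the tumour tags of the titles were likewise all lower for p95HER2 tumours than for EV tumours. Effects of library total or tag order and of p95HER2 cannot be told apart. Erbb2, the mouse gene of HER2, was at 122 to 231 CPM in p95HER2 tumours and 60.4 to 74.9 CPM in EV tumours. Of 14 macrophage markers, 7 fell and 1 rose, with a summed level of 628 to 1120 CPM in p95HER2 tumours and 843 to 1630 CPM in EV tumours. Of the T cell markers 3 of 9, and 6 of 8 tested adipocyte markers, 1 of 10 fibroblast markers and 1 of 9 epithelial markers, fell; 1 of 5 erythroid markers rose, and none of 12 skeletal muscle markers was called. Over all genes 4.45% were called lower and 5.73% higher. Summed skeletal muscle markers ran from 347 to 3320 CPM in p95HER2 tumours and from 109 to 6590 CPM in EV tumours. Of 11 platelet and megakaryocyte markers, 8 did not pass the filter and Gp1bb was at 0 in every library.

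Levels can be ranked between genes only per length, here as FPKM, CPM per kilobase of merged exons. The merged exons are those of all annotated forms of a gene, from 2867 bases for Esam to 16064 for Vwf. The order depends on these lengths. In p95HER2 tumours Flt1 was highest at 12.0 ± 1.02 FPKM (SD, n = 8), followed by Eng at 8.16 ± 1.33, Cdh5 at 6.05 ± 1.11 and Pecam1 at 5.13 ± 0.767 FPKM. In EV tumours Flt1 was at 10.7 ± 0.799 and Eng at 10.4 ± 2.37 FPKM (SD, n = 10), followed by Cdh5 at 6.76 ± 1.35 and Pecam1 at 6.09 ± 1.20 FPKM. Esam, Tie1, Kdr and Emcn came next in this order in both groups, from 3.37 down to 1.86 FPKM in p95HER2 tumours and from 3.60 down to 1.85 FPKM in EV tumours. Vwf and Tek were lowest, at 0.816 and 0.687 FPKM in p95HER2 tumours and at 0.801 and 0.821 FPKM in EV tumours. The ranges of neighbours in this order overlapped in both groups, except that Emcn lay wholly above Vwf in p95HER2 tumours. The ranges of Flt1 and Eng, the 2 highest, overlapped widely in EV tumours.

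Pecam1, which encodes the adhesion receptor CD31 of endothelial cell contacts (ENSMUSG00000020717, chromosome 11, 106654217 to 106750628, minus strand, mm10), ran from 23.3 through a median of 31.7 to 38.3 CPM in p95HER2 tumours and from 22.4 through 40.7 to 45.8 CPM in EV tumours. The p95HER2 range lay inside the EV range, but all 8 p95HER2 tumours lay below the EV median. Its log2 fold change was -0.25 (SE 0.12, 95% interval -0.50 to 0.0049, edgeR BH-adjusted p = 0.1995). Without EV 4, the lowest EV tumour, Pecam1 was called, as 9.16% of all genes were (edgeR BH-adjusted p = 0.0431; 0.0431 to 0.326 over 26 alternatives). PECAM1 is also carried by platelets and by some leukocytes. Pecam1 was correlated with the macrophage marker level over the 18 tumours (Pearson r = 0.606, BH-adjusted permutation p = 0.028; Spearman rho = 0.699, adjusted permutation p = 0.0092). The r was 0.411 within p95HER2 tumours, 0.551 within EV tumours and 0.672 without the 2 tumours of most extreme macrophage level. It was also correlated with adipocyte markers, whose summed level was 26.6 to 53.5 CPM in p95HER2 tumours and 45.6 to 147 CPM in EV tumours (r = 0.649, BH-adjusted permutation p = 0.019; rho = 0.707, adjusted permutation p = 0.0087). There r was 0.719 within p95HER2 tumours, 0.512 within EV tumours and 0.558 without the 2 extreme tumours. Fibroblast markers passed as well (r = 0.587, BH-adjusted permutation p = 0.037; rho = 0.579, adjusted permutation p = 0.034; 0.656 within p95HER2, 0.401 within EV, 0.444 without the 2 extreme tumours). Epithelial markers passed by rho alone (rho = 0.637, adjusted permutation p = 0.021). These relations were not particular to Pecam1. By rho, Kdr (0.725), Tie1 (0.639), Cdh5 (0.591) and Tek (0.569) followed macrophage markers too (adjusted permutation p of 0.0082, 0.021, 0.031 and 0.038), though their Pearson r did not pass. Their r ran from 0.229 (Cdh5) to 0.541 (Tie1) within p95HER2 tumours and from 0.311 (Tek) to 0.561 (Kdr) within EV tumours. Tek followed adipocyte markers (r = 0.653, BH-adjusted permutation p = 0.019). The part of these cell types in the difference of Pecam1 between groups was not tested. Fewer cells of a type and less RNA per cell cannot be told apart in these whole-tumour libraries.

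Cdh5 encodes VE-cadherin, the adherens junction cadherin of endothelium (ENSMUSG00000031871, chromosome 8, 104101625 to 104144511, plus strand). Its lowest, median and highest values were 18.7, 24.9 and 31.8 CPM in p95HER2 tumours and 16.1, 29.7 and 34.4 CPM in EV tumours. Of the 8 p95HER2 tumours 6 lay below the EV median, well inside the EV range. The log2 fold change was -0.16 (SE 0.13, 95% interval -0.43 to 0.11, edgeR BH-adjusted p = 0.473), an interval that spans folds of 0.740 to 1.08. No alternative called Cdh5 (edgeR, DESeq2 or limma BH-adjusted p of 0.168 to 0.658).

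The other surface and secreted products had smaller fold changes. Esam, an immunoglobulin-family molecule of endothelial tight junctions (ENSMUSG00000001946, chromosome 9, 37528078 to 37538319), had 6.47, 10.3 and 11.8 CPM as lowest, median and highest values in p95HER2 tumours and 6.19, 10.5 and 13.6 CPM in EV tumours. Emcn, which encodes the sialomucin endomucin of capillaries and veins (ENSMUSG00000054690, chromosome 3, 137341067 to 137432185), had 6.86, 10.4 and 12.4 CPM in p95HER2 tumours and 4.97, 10.5 and 11.7 CPM in EV tumours. Within each of these 2 genes the group medians were nearly equal. Vwf encodes von Willebrand factor, the clotting protein stored in endothelial granules and in platelets (ENSMUSG00000001930, chromosome 6, 125546774 to 125686679). Its values were 8.67, 13.2 and 16.6 CPM in p95HER2 tumours and 9.20, 12.8 and 17.5 CPM in EV tumours. The log2 fold changes were -0.10 for Esam, 0.0090 for Emcn and 0.027 for Vwf (SE 0.13, 0.14 and 0.13; edgeR BH-adjusted p = 0.699, 0.979 and 0.930). Their 95% intervals span folds of 0.771 to 1.14, 0.822 to 1.23 and 0.839 to 1.24. The sign for Emcn and Vwf turned when single tumours were left out.

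**Figure D2:**
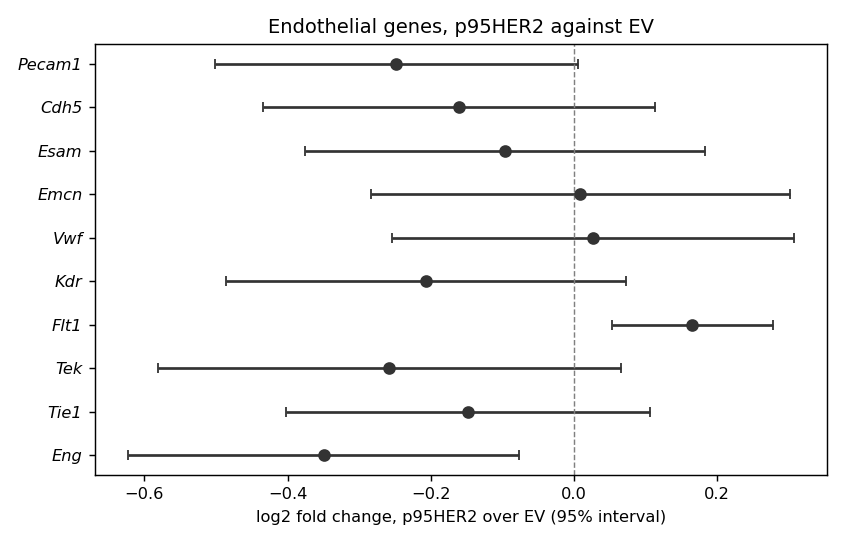
Log2 fold change of each endothelial gene, p95HER2 over EV (x axis), as points with 95% intervals from the edgeR fit over all genes. Only the intervals of Flt1, 0.052 to 0.28, and Eng, -0.62 to -0.076, leave out 0, and neither gene passed after adjustment over all genes.

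Neither VEGF receptor gene was called, and the difference between them was not tested. Kdr, the main signalling receptor (ENSMUSG00000062960, chromosome 5, 75932827 to 75978458, minus strand), had 14.7, 17.8 and 21.3 CPM as lowest, median and highest values in p95HER2 tumours and 10.1, 22.0 and 27.6 CPM in EV tumours. All 8 p95HER2 tumours lay below the EV median, and EV 4 lay below all of them. Its log2 fold change was -0.21 (SE 0.13, 95% interval -0.49 to 0.073, edgeR BH-adjusted p = 0.3455), and without EV 4 it was -0.29 (edgeR BH-adjusted p = 0.0501; 0.0501 to 0.509 over 26 alternatives).

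Flt1 (ENSMUSG00000029648, chromosome 5, 147561604 to 147726011, minus strand) had 140, 165 and 178 CPM as lowest, median and highest values in p95HER2 tumours and 121, 147 and 157 CPM in EV tumours. Of the 8 p95HER2 tumours 6 lay above every EV tumour, and p95HER2 6 and 8, at 144 and 140 CPM, lay below the EV median. The log2 fold change was 0.17 (SE 0.05, 95% interval 0.052 to 0.28, a fold of 1.12), and it missed the threshold narrowly (edgeR BH-adjusted p = 0.0562). Flt1 was called without EV 1, without p95HER2 6 or without p95HER2 8 (edgeR BH-adjusted p of 0.035, 0.031 and 0.018, beside 13.7%, 10.1% and 10.8% of all genes called). DESeq2 called it too (BH-adjusted p = 0.044, 12.1% of all genes), as did limma voom with quality weights (BH-adjusted p = 0.020, 13.7%). Without EV 1 and p95HER2 4 it was called beside 10.9% of all genes, and without EV 4 and p95HER2 7, where 7.44% were, it was not. Over 26 alternatives the BH-adjusted p ran from 0.0182 to 0.151, with a log2 fold change between 0.14 and 0.20. Flt1 also varied least: its coefficient of variation was 8.51% in p95HER2 tumours and 7.46% in EV tumours, against 12.3% to 27.2% and 18.1% to 23.0% for the other 9 genes.

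Both VEGF receptor genes lie on chromosome 5, and the genes around them differed. Within 5 Mb of Flt1, 77 other tested genes had a mean log2 CPM of 1 or more; 30 were higher and 1 lower in p95HER2 tumours, 40.3% called against 10.2% over all genes. Their median log2 fold change was 0.20, close to the 0.17 of Flt1. The raised genes lay mainly on 1 side: of 56 neighbours at lower coordinates 28 rose and none fell, with a median of 0.23, and of 21 at higher coordinates 2 rose and 1 fell, with a median of 0.063. Within 5 Mb of Kdr, 2 of 36 neighbours rose and 2 fell, with a median of -0.0015. Around the other 8 genes the median of neighbours ran between -0.052 (Cdh5) and 0.030 (Eng), and 0% to 16.2% were called. The part of the raised stretch in the value of Flt1 was not tested.

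**Figure D3:**
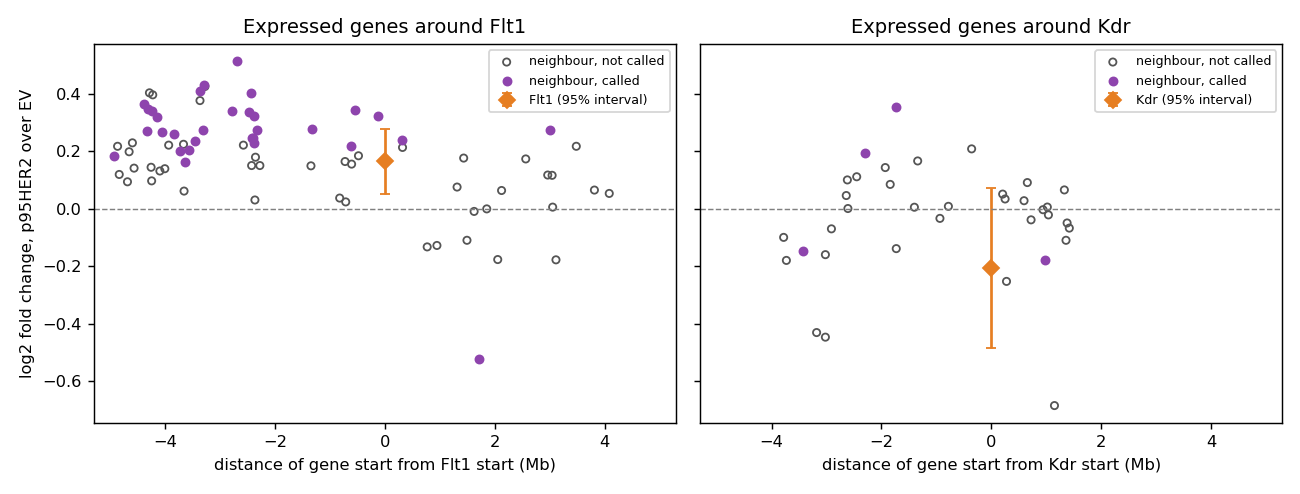
Log2 fold change, p95HER2 over EV (y axis), of expressed genes within 5 Mb of Flt1 (left) and Kdr (right) by distance of the gene start in Mb (x axis); filled points passed the test, and the diamond is the receptor gene with its 95% interval. Of the 77 neighbours of Flt1, 30 rose, 28 of them at lower coordinates, while 2 of the 36 neighbours of Kdr rose.

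The stretches before the gene starts of Flt1, Kdr and Tie1 are shown because Flt1 stood apart from the other genes while Kdr and Tie1 moved together. Each is the 250 bases before the RefSeq start (GRCm38.p6), 5′ to 3′ on the gene's strand, with the core GGAA of ETS-family motifs, or its complement TTCC, in capitals. The RefSeq and GENCODE starts differ for Tie1, where 212 of the 250 bases lie inside the gene as bounded by GENCODE, and for Kdr, where 3 do. ETS factors such as ERG and FLI1 are known regulators of endothelial genes.
Flt1, chr5:147726012-147726261, minus strand: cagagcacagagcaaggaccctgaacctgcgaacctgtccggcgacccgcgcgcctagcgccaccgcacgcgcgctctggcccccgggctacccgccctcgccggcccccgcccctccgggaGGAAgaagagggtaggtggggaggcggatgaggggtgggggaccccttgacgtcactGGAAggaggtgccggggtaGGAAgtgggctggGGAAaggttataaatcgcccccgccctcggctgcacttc
Kdr, chr5:75978456-75978705, minus strand: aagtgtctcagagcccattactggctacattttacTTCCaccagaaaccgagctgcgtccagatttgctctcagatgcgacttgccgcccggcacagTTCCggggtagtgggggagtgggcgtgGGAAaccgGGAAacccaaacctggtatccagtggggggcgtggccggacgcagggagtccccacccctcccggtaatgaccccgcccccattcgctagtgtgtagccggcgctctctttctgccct
Tie1, chr4:118489850-118490099, minus strand: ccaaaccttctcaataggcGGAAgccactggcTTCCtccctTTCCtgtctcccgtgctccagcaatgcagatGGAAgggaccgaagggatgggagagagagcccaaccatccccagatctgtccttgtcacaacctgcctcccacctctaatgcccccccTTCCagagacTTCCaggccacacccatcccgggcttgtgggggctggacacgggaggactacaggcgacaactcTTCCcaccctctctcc

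The Flt1 stretch holds 4 matches of GGAA on either strand, that of Kdr 4 and that of Tie1 7, where the median of 32851 RefSeq promoters was 3. GGAA occurred in all 6 member promoters found in the table and in 93.4% of all promoters, so its presence does not set these genes apart. The longer forms, which contain GGAA and were searched on both strands, occurred less: CAGGAAG in 10.8% of all promoters and, among the 6, in Emcn, and CCGGAAG in 6.91% and in none of the 6. The TATA box, spelled TATAAA, was found in Flt1 alone of the 6 and in 12.4% of all promoters. The GATA-factor motif AGATAA was in 9.99% of all promoters, the forkhead motif GTAAACA in 3.17% and the E-box CACGTG in 6.02%, each in none of the 6. The share of G and C was 70.4% for Flt1, 61.6% for Kdr and 60.4% for Tie1, against a median of 52.4% over all promoters.

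The angiopoietin receptor Tek (ENSMUSG00000006386, chromosome 4, 94739289 to 94874976, plus strand) was the gene of fewest reads. It had 1.81, 3.29 and 4.78 CPM as lowest, median and highest values in p95HER2 tumours and 2.63, 3.75 and 4.95 CPM in EV tumours. Its orphan relative Tie1 (ENSMUSG00000033191, chromosome 4, 118471191 to 118490061, minus strand) had 9.73, 12.5 and 15.4 CPM in p95HER2 tumours and 8.58, 13.8 and 18.5 CPM in EV tumours. The groups overlapped over most of their range for both receptors. Log2 fold changes were -0.26 for Tek and -0.15 for Tie1 (SE 0.16 and 0.12; edgeR BH-adjusted p = 0.304 and 0.477), and no alternative called either. The 95% intervals reach folds of 0.669 and 0.757 at their lower ends.

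Eng encodes endoglin, a co-receptor for BMP9 and TGF-beta that is also found on activated macrophages and stromal cells (ENSMUSG00000026814, chromosome 2, 32646595 to 32682669, plus strand). It had the most negative value of the 10 genes, with 27.5, 31.9 and 41.9 CPM as lowest, median and highest values in p95HER2 tumours and 28.8, 42.4 and 55.1 CPM in EV tumours. Every p95HER2 tumour lay below the EV median. The log2 fold change was -0.35 (SE 0.13, 95% interval -0.62 to -0.076, a fold of 0.785) and did not pass (edgeR BH-adjusted p = 0.0939; 0.0451 without EV 4, and 0.0451 to 0.170 over 26 alternatives). Eng shares 61 exon bases with Fpgs on the opposite strand, and the sources used here do not give the strand option of the counting. Its level followed macrophage markers (r = 0.790, BH-adjusted permutation p = 0.0018; rho = 0.798, adjusted permutation p = 0.0010), with r = 0.863 within p95HER2 tumours, 0.634 within EV tumours and 0.722 without the 2 extreme tumours. It also followed fibroblast markers, whose summed level was 1540 to 3380 CPM in p95HER2 tumours and 1770 to 4280 CPM in EV tumours (r = 0.753, BH-adjusted permutation p = 0.0024; rho = 0.752, adjusted permutation p = 0.0053; r = 0.687 within p95HER2, 0.666 within EV, 0.718 without the 2 extreme tumours). T cell markers passed too, with a summed level of 9.18 to 35.6 CPM in p95HER2 tumours and 15.8 to 79.7 CPM in EV tumours (r = 0.680, BH-adjusted permutation p = 0.011; rho = 0.711, adjusted permutation p = 0.0085; 0.741 within p95HER2, 0.477 within EV, 0.546 without the 2 extreme tumours). The part of these cells in the difference of Eng between groups was not tested.

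The genes moved together from tumour to tumour. Of the 36 pairs that leave out Flt1, 34 were positively correlated over 18 tumours after adjustment over all 45 pairs (permutation test of Pearson r on log2(CPM + 0.5), 100000 permutations, two-sided), with r from 0.326 to 0.930 and a median of 0.757. Spearman's rho ran from 0.323 to 0.920, with 33 of these 36 pairs passing. The median r was 0.814 within p95HER2 tumours, 0.786 within EV tumours and 0.668 without the 2 tumours farthest from the median of the first gene. The lowest r was 0.159 within p95HER2 tumours, for Kdr with Eng, and 0.43 within EV tumours, for Tek with Eng. The tightest pair was Pecam1 and Cdh5 (r = 0.930, BH-adjusted permutation p = 5.6e-05, from the smallest p that the permutations can give; rho = 0.920, adjusted permutation p = 0.00022), with 0.897 within p95HER2, 0.954 within EV and 0.859 without the 2 extreme tumours. Cdh5 and Tie1 followed, at r = 0.923. Eng with Vwf (r = 0.326, BH-adjusted permutation p = 0.21) and with Emcn (r = 0.416, BH-adjusted permutation p = 0.10) were the 2 pairs that did not pass.

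Flt1 had a negative r with each of the other 9 genes, from -0.669 to -0.072. One pair passed, Flt1 with Eng (r = -0.669, BH-adjusted permutation p = 0.0037; rho = -0.666, adjusted permutation p = 0.0061; r = -0.669 within p95HER2, -0.467 within EV and -0.583 without the 2 extreme tumours). Without EV 4, 4 pairs with Flt1 passed and 31 of the others did. Within p95HER2 tumours the r of Flt1 with the other genes ran from -0.710 to -0.307, with a median of -0.573. Within EV tumours it ran from -0.467 to 0.215, with a median of 0.145, and only the r with Eng was negative. The difference between groups was not tested.

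**Figure D4:**
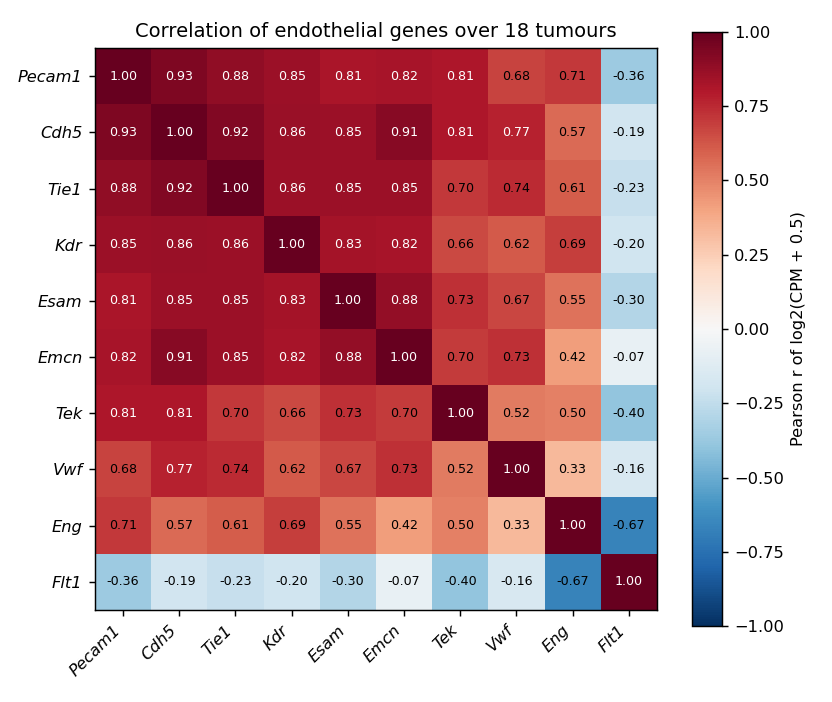
Pearson r of log2(CPM + 0.5) between each pair of endothelial genes over the 18 tumours (colour and number, rows and columns are genes). The 36 pairs among the 9 genes other than Flt1 range from 0.326 to 0.930, and the 9 pairs with Flt1 are all below 0. Within EV tumours alone, not shown here, the median r of the pairs with Flt1 was 0.145.

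The label was checked against 28 other genes listed as pan-endothelial, such as Cldn5, Robo4, Plvap and Tm4sf1, all 28 of which passed the filter. Their expression in other cells of the tumours was not tested, and Tm4sf1 was highest, at 518 CPM in p95HER2 tumours and 542 CPM in EV tumours. Of the 10 genes 9 followed the mean level of that list, with r from 0.641 (Eng) to 0.940 (Pecam1) and BH-adjusted permutation p from 0.00017 to 0.019 over 100 relations; rho for Pecam1 was 0.959 and its r without the 2 extreme tumours 0.881. Flt1 did not follow the pan-endothelial list (r = -0.385, BH-adjusted permutation p = 0.20; rho = -0.387, adjusted permutation p = 0.19). Its r with that list was -0.651 within p95HER2 tumours and 0.114 within EV tumours. The label of Flt1 as an endothelial marker was thus not borne out by this check, and which cells express Flt1 was not tested. Its level was inversely related to fibroblast markers (r = -0.735, BH-adjusted permutation p = 0.0031; rho = -0.655, adjusted permutation p = 0.017; -0.703 within p95HER2, -0.549 within EV, -0.566 without the 2 extreme tumours). It was also inversely related to T cell markers (r = -0.642, BH-adjusted permutation p = 0.019; rho = -0.748, adjusted permutation p = 0.0055), where r was -0.270 within p95HER2 tumours, -0.613 within EV tumours and -0.663 without the 2 extreme tumours. Macrophage markers were a further inverse relation (r = -0.618, BH-adjusted permutation p = 0.025; rho = -0.631, adjusted permutation p = 0.021; -0.492 within p95HER2, -0.243 within EV, -0.547 without the 2 extreme tumours). The part of these cells in the level of Flt1 was not tested. Epithelial markers showed no such relation that passed (r = -0.258, BH-adjusted permutation p = 0.40, and rho = -0.441, adjusted permutation p = 0.13). There r was -0.585 within p95HER2 tumours and 0.398 within EV tumours. All 9 other genes followed the pericyte and smooth muscle list (r from 0.601 to 0.783, BH-adjusted permutation p of at most 0.025), though by Spearman's rho Emcn did not (rho = 0.387, adjusted permutation p = 0.19).

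The 10 genes most like the mean of the members, out of 14319 and after centring within each group, were Col4a2 (r = 0.959 over 18 tumours), Col4a1 (0.941), Cd93 (0.935), Nid2 (0.915), Adgrf5 (0.906), Nid1 (0.903), Nos3 (0.896), S1pr1 (0.885), Aplnr (0.884) and Exoc3l2 (0.879). Col4a1 and Col4a2 encode the collagen IV chains, and Nid1 and Nid2 the nidogens, of basement membrane. Cd93, Nos3, S1pr1 and Aplnr encode a lectin-like receptor, the endothelial nitric oxide synthase, a sphingosine 1-phosphate receptor and the apelin receptor. None of the 10 was called between the groups (edgeR BH-adjusted p of 0.146 for Cd93 to 0.908 for Col4a1).

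Ligands and receptors of the VEGF and angiopoietin systems were mostly uncalled. Of 8 VEGF ligands and co-receptors, 1 rose and none fell, with a median log2 fold change of 0.045. Over all genes 5.73% were called higher and 4.45% lower. Nrp2, a co-receptor for VEGF-C and semaphorins, was at 35.7 ± 10.2 CPM in p95HER2 tumours and 23.2 ± 3.07 CPM in EV tumours , with 8 of 8 p95HER2 tumours over the EV median. The difference was 0.62 on the log2 scale (SE 0.13; edgeR, BH-adjusted p = 0.0059). It was called under all 26 alternatives. Of 6 genes of the angiopoietin-Tie system none was called and the median was -0.24. Ptprb, the phosphatase that acts on TIE2, had a log2 fold change of -0.31 (edgeR BH-adjusted p = 0.0868) and was called without EV 3 or without EV 4 (edgeR BH-adjusted p of at least 0.0392). Angptl4, the other gene of highest level, was at 6.37 ± 2.81 CPM in p95HER2 tumours and 7.57 ± 3.72 CPM in EV tumours.

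In the endoglin-ALK1 pathway 1 of 11 tested genes fell and none rose (median -0.0044), beside 4.45% of all genes called lower and 5.73% higher. Acvrl1, which encodes the endothelial receptor ALK1 that endoglin assists, was at 9.53 ± 1.61 CPM in p95HER2 tumours and 12.8 ± 2.70 CPM in EV tumours. It differed by -0.43 on the log2 scale (SE 0.13; by edgeR, BH-adjusted p = 0.0345), a call lost without EV 2, 5, 7 or 9, or p95HER2 1, 2, 4 or 5 (BH-adjusted p by edgeR of up to 0.0743). Of 14 Notch and tip cell genes 1 rose and 1 fell (median -0.092). Jag1, a Notch ligand, was at 24.2 ± 10.8 CPM in p95HER2 tumours and 14.8 ± 1.92 CPM in EV tumours (edgeR log2 fold change 0.71 with SE 0.19, BH-adjusted p = 0.0211). The receptor gene Notch1, also active in epithelium, was at 372.5 ± 26.6 CPM in p95HER2 tumours and 453 ± 51.0 CPM in EV tumours (edgeR log2 fold change -0.28 with SE 0.06, BH-adjusted p = 0.0082).

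Of 14 endothelial transcription factors 2 fell and none rose (median -0.18), beside 4.45% of all genes called lower and 5.73% higher. Mecom was at 4.92 ± 1.17 CPM in p95HER2 tumours and 8.59 ± 2.77 CPM in EV tumours (edgeR log2 fold change -0.80 with SE 0.19, BH-adjusted p = 0.0098). The ETS factor gene Fli1, which leukocytes express too, was at 4.25 ± 0.674 CPM in p95HER2 tumours and 6.45 ± 1.13 CPM in EV tumours (edgeR log2 fold change -0.60 with SE 0.12, BH-adjusted p = 0.0038). Both fell under all 26 alternatives, with no p95HER2 tumour above the EV median. Of the 28 other pan-endothelial genes 24 had a negative log2 fold change, beside 52.3% of all genes, and 1 fell (median -0.20). That one, Podxl, the sialomucin podocalyxin of endothelium and some epithelia, was at 36.5 ± 3.01 CPM in p95HER2 tumours and 44.3 ± 5.86 CPM in EV tumours (edgeR log2 fold change -0.28 with SE 0.07, BH-adjusted p = 0.0177).

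Beside 4.45% of all genes called lower, 1 of 5 tested endothelial adhesion molecules fell (median -0.34). It was Icam1, a leukocyte ligand induced by inflammation on many cell types, at 8.06 ± 2.07 CPM in p95HER2 tumours and 11.8 ± 2.72 CPM in EV tumours (edgeR log2 fold change -0.55 with SE 0.16, BH-adjusted p = 0.0336). That call was lost when EV 2, 4, 6, 7 or 9, or p95HER2 1, 2, 4, 5 or 7, was left out (BH-adjusted p by edgeR of up to 0.0754 over 26 alternatives). No gene was called among 5 tested lymphatic endothelial genes (median -0.080), where Pdpn and Flt4 were at 18.03 ± 3.30 and 4.91 ± 0.589 CPM in p95HER2 tumours and at 19.1 ± 3.53 and 4.71 ± 1.27 CPM in EV tumours. None was called among 14 pericyte and smooth muscle genes either (median -0.10). In that list Notch3 was at 193 ± 34.5 CPM in p95HER2 tumours and 205 ± 28.3 CPM in EV tumours, and Des, which skeletal muscle also expresses, at 112 ± 44.7 CPM in p95HER2 tumours and 184 ± 87.5 CPM in EV tumours.

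Beside 5.73% of all genes called higher, 3 of 10 basement membrane genes rose (median 0.045), the laminin chain genes Lamb1, Lama5 and Lamc1, which epithelial cells express as well. Lamb1 was at 242 ± 15.2 CPM in p95HER2 tumours and 206 ± 11.2 CPM in EV tumours (edgeR log2 fold change 0.23 with SE 0.04, BH-adjusted p = 0.0020). Lama5 was at 358 ± 29.2 CPM in p95HER2 tumours and 305 ± 39.5 CPM in EV tumours (log2 fold change 0.23, edgeR BH-adjusted p = 0.0396), a call lost when EV 2, 3, 4, 5, 6 or 9, or p95HER2 1, 2, 3, 4, 5 or 8, was left out (BH-adjusted p by edgeR of up to 0.0771). Of 9 factors known to restrain vessel growth 3 rose, beside the same 5.73%, Col18a1, Sema3e and Sema3f (median 0.22). Col18a1, the collagen from which endostatin is cut, was at 126 ± 36.5 CPM in p95HER2 tumours and 71.1 ± 13.7 CPM in EV tumours (edgeR log2 fold change 0.83 with SE 0.15, BH-adjusted p = 0.0028). Sema3e, a repulsive semaphorin, was at 21.8 ± 3.70 CPM in p95HER2 tumours and 14.2 ± 2.55 CPM in EV tumours (edgeR log2 fold change 0.62 with SE 0.12, BH-adjusted p = 0.0023). Both were called under all 26 alternatives, with 8 of 8 p95HER2 tumours above the EV median.

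**Figure D5:**
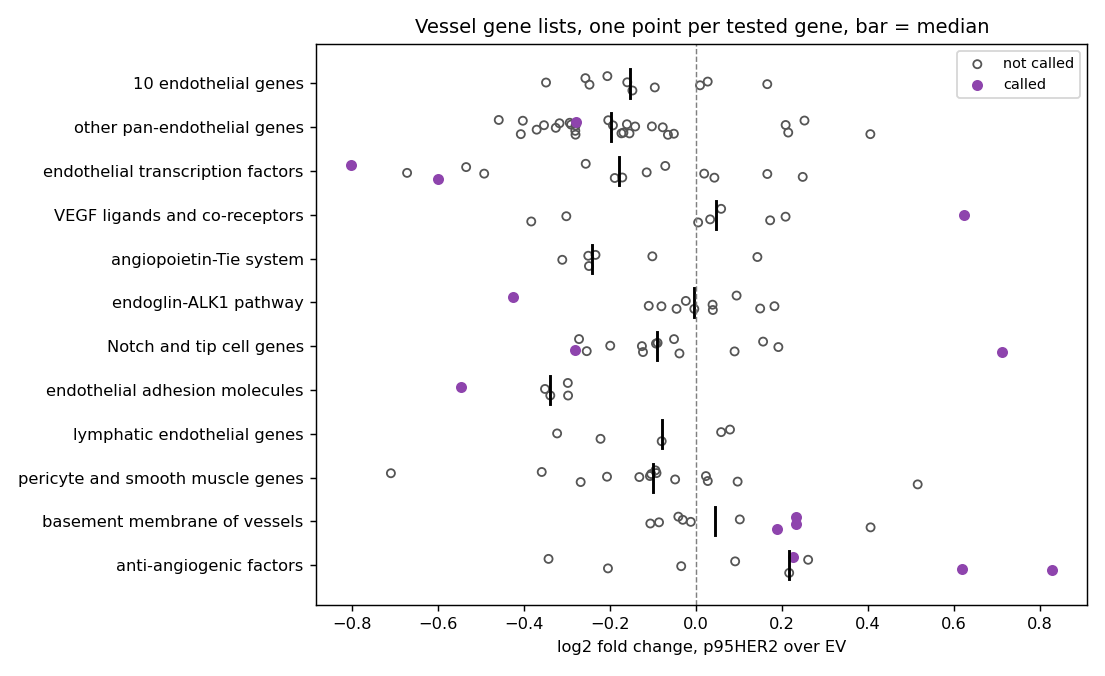
Log2 fold change, p95HER2 over EV (x axis), of every tested gene in 12 vessel gene lists (rows); filled points passed the test, open points did not, and bars mark the median of each list. The 10 endothelial genes hold no filled point and have a median of -0.15, and the basement membrane and anti-angiogenic rows hold 3 called rises each, where 5.73% of all genes were called higher; Lama5, 1 of them, lost its call in 14 of 26 alternatives.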

How the data were processed

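Raw read counts per Ensembl gene were deposited by the authors for 8 p95HER2 and 10 EV tumours, and were not normalized. STAR 2.5, HTSeq 0.6.1 and the build mm10 are named in the submitters' processing notes. Strand option and annotation release: not given in the sources used. Per the labels' protocols the libraries were directional and mRNA-enriched. Coordinates and exon lengths are from GENCODE M21, of the same build.

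Counts were tested with edgeR 4.0.16 in R 4.3.3: filterByExpr (minimum count 10, minimum total 15), TMM scaling, robust quasi-likelihood F-test, BH adjustment over 17123 genes, called under 0.05. DESeq2 1.42.0 and limma 3.58.1 served as alternatives. CPM uses TMM-scaled totals; the mean of log2(CPM + 0.5) is a list's level. Correlations used two-sided permutation tests, adjusted over 45 pairs of members or 100 relations of members with lists. Tumours were permuted over both groups, so these p-values also take in shifts between the groups. The r within each group was not tested. The most similar libraries differed by more than sampling noise (chi-square per degree of freedom 9.73). The labels do not state that tumours came from separate mice, so the p-values cover only the spread among these libraries, which may be technical. The correlation test was run on simulated pairs before it was run on these data. The edgeR test was run on simulated counts only after its fit to these data, from which the simulation took its settings.

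The members and lists were chosen with earlier results of these data known. Named beside them were, per vessel list, up to 2 called genes of largest rise and up to 2 of largest fall, or else the 2 of highest level; Lamc1, Sema3f and the example genes of the pan-endothelial list were named outside that rule. The 10 genes most like the members were ranked by Pearson r among genes whose mean log2 CPM was 0 or more. Alternatives were RLE scaling, library totals, no filter, a 1 CPM filter in at least 8 tumours, DESeq2, limma voom, each tumour left out, and EV 1 with p95HER2 4 left out; EV 4 with p95HER2 7 left out was added after the data were seen.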

Additional observations from a re-analysis of the deposited data

Results flagged for a closer look

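On the scale of log2(CPM + 0.5), 4 of the 10 genes in EV 4 lay further below the other EV tumours than Dixon's 95% criterion allows. They were Cdh5 at 16.1 CPM, Kdr at 10.1 CPM, Tie1 at 8.58 CPM and Emcn at 4.97 CPM. Their Dixon ratios on the log2 scale ran from 0.471 (Tie1) to 0.681 (Emcn), over a critical value of 0.466. In all, 20 combinations of gene and group were examined, and chance flags about 1 in 20; since these genes move together, the 4 are not separate events. EV 4 was the lowest of all 18 tumours for 6 of the 10 genes, and its level of the other pan-endothelial list, 2.89, was the lowest of the EV tumours. Its macrophage marker level, 5.46, lay inside the EV range of 4.92 to 5.98. Among p95HER2 tumours p95HER2 7 was lowest for 8 of the 10 genes and had the highest Flt1, 178 CPM.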

How the results depend on the processing

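The number of members called, 0, became 1 (Flt1) by DESeq2, by limma voom and without EV 1 and p95HER2 4 together. It ran from 0 to 2 when single tumours were left out, the 2 being Pecam1 and Eng without EV 4; the cause was not tested. Without EV 4 and p95HER2 7 together it stayed 0. Over all genes the count of 1743 ran from 1275 to 2399, and from 1289 to 2331 with 1 tumour left out. The log2 fold change of Emcn turned to -0.014 without EV 1 and p95HER2 4, to -0.0055 without EV 4 and p95HER2 7, and ran from -0.070 to 0.074 with 1 tumour left out. That of Vwf turned to -0.0070 by limma voom and to -0.032 without EV 1 and p95HER2 4, and ran from -0.026 to 0.095 with 1 tumour left out. That of Flt4 was -0.029 without EV 4 and ran up to 0.1015 with another tumour left out. With no filter Jag1 and Icam1 lost their calls (edgeR BH-adjusted p = 0.0501 and 0.0506). Without EV 1 and p95HER2 4 together Acvrl1 (0.0721) and Lama5 (0.0522) did, and without EV 4 and p95HER2 7 together Icam1 (0.0754) and Lama5 (0.0568). The 35 correlated pairs numbered 33 to 36 under the 20 alternatives run. No paired analysis was possible because the labels give no number shared by tumours of both groups. With 8 against 10 tumours the 95% intervals of the 10 genes together reach from a fold of 0.650 (Eng) to 1.24 (Vwf), so smaller differences may have gone undetected.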

Other observations

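Since Flt1 did not follow the other endothelial genes, the genes whose group-centred levels were most like it over the 18 tumours were listed, a choice made after its values were seen and given as a description. They were led by 2010300C02Rik (r = 0.827), Vipr1 (0.814), a receptor for vasoactive intestinal peptide, Cstf2t (0.803), Itga6 (0.792), the integrin subunit that binds laminins, and Hsd11b1 (0.787). Itga6 was at 1030 CPM in p95HER2 tumours and 920 CPM in EV tumours and was not called (edgeR BH-adjusted p = 0.179). Vipr1 was at 92.8 CPM in p95HER2 tumours and 69.7 CPM in EV tumours (log2 fold change 0.41, edgeR BH-adjusted p = 0.0020), and Car12, a membrane carbonic anhydrase at r = 0.769, at 290 CPM in p95HER2 tumours and 205 CPM in EV tumours (log2 fold change 0.50, edgeR BH-adjusted p = 0.0043). No gene of the vessel lists was among the 10 most like Flt1, whereas 9 of the 10 most like the mean of all members were.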
